A study of Mus musculus with 6 samples.

Results

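*Usp2* and *Usp29* encode deubiquitinases of the ubiquitin-specific protease (USP) family, enzymes that cut ubiquitin from proteins. They were chosen as the deubiquitinases named in the study that have values in the expression table, and they are 2 of its 3201 genes. The values come from RNA-seq of bulk liver of male mice, 3 Fgf18 f/f and 3 Fgf18ΔHSC. All livers were taken after 1 h of partial warm ischemia and 6 h of reperfusion, so every liver had been through ischemia-reperfusion (I/R). Fgf18 encodes a secreted fibroblast growth factor, and the design asks what its loss from hepatic stellate cells (HSCs), the pericytes of the sinusoid that store retinoids, does to the injured liver. Both groups carry loxP-flanked Fgf18, and the Fgf18ΔHSC mice also carry Cre driven by the GFAP promoter, which is used to delete Fgf18 in HSCs. The labels give the control livers as IR and the others as FGF18 KNOCKOUT, and the floxed genotype of the controls was taken from the study's description. Levels of Fgf18 were not analysed here, so the genotypes stand as labelled, and neither the age of the mice nor the clock time of liver collection is given in the sources used here. Livers are named below by group and by the number in their label.

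Ubiquitin chains mark proteins for the proteasome or change what they bind, and a deubiquitinase reverses the mark on its own set of substrates. *Usp2* RNA rises and falls daily in liver under the circadian clock, and its protein acts on clock proteins such as BMAL1, PER1 and CRY1 as well as on MDM2 and cyclin D1. The gene has a distal and an internal promoter that give a long and a short protein with different N termini, and a value summed over the gene does not separate them. In hepatocytes *Usp2* is also known for raising gluconeogenesis through glucocorticoid signalling. *Usp29* is an imprinted gene that is expressed from the paternal allele, mostly in brain and testis, and it lies head to head with *Peg3*, a paternally expressed zinc finger gene.

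*Usp2* (ENSMUSG00000032010) lies on chromosome 9 of GRCm38 from 44067021 to 44095627 on the plus strand, with 9 annotated transcripts, 6 of them coding. The most upstream transcript starts at 44067021 and other coding transcripts start further inside the gene, among them those at 44084939 and 44084950. *Usp29* (ENSMUSG00000051527) lies on chromosome 7 from 6730578 to 6967219 on the plus strand, with 9 transcripts, 4 of them coding. *Peg3* (ENSMUSG00000002265) ends 147 bp before it, on the minus strand from 6703892 to 6730431. The start regions are shown because *Usp29* and *Peg3* share theirs and because that of *Usp2* is its internal start. They are RefSeq windows on GRCm38.p6 of 250 bases before to 50 after the start, in lower case, with the letters TGACG capitalised in *Usp2* and TGACGTCA, the full cyclic AMP response element, in *Usp29* and *Peg3*:
Usp2 chr9:44084670-44084969, plus strand: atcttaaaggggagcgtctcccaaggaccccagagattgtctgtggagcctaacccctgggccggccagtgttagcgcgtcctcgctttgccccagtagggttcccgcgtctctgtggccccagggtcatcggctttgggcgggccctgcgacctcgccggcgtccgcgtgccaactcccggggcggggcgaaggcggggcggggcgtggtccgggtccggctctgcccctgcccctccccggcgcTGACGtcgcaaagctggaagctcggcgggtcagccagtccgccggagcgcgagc
Usp29 chr7:6730333-6730632, plus strand: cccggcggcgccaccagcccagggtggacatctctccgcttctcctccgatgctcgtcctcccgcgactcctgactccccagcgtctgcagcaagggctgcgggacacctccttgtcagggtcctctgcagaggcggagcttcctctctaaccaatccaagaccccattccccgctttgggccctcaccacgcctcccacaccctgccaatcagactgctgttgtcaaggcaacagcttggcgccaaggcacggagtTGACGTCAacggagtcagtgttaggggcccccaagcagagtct
Peg3 chr7:6730370-6730669, minus strand: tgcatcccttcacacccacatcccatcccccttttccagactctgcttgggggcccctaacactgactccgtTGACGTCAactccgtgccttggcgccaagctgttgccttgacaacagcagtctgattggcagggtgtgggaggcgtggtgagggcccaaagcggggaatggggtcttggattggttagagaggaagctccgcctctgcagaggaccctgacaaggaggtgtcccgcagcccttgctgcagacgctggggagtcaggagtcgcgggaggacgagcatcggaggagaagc
The RefSeq window of *Usp2* covers the internal start and not the distal one. The *Usp29* and *Peg3* windows share 263 bases, from 6730370 to 6730632, and their starts are 164 bases apart. The same TGACGTCA stands at position 258 of the *Usp29* window and at position 73 of the *Peg3* window, counted from 1 at the 5′ end of each. On either strand, 1.79% of all 32851 windows hold TGACGTCA and 20.8% hold TGACG, which is contained in it and has 1 match in the *Usp2* window, at position 247. The E-box CACGTG, held by 7.15% of windows, and the D-box letters TTANGTAA, held by 2.32%, are in none of the 3 windows. GC content was 71.7% in the *Usp2* window, 63.7% in that of *Usp29* and 61.3% in that of *Peg3*, against a median of 52.7% over all windows. A match is a description of these letters, and no binding was measured.

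The table lists only genes that the authors had already selected for a difference between these livers: no row has an absolute log2 fold change under 1 or an unadjusted p of 0.05 or more in their comparison. A listed gene therefore had to differ, the tests below are not independent evidence that it did, and nothing follows for a gene that has no value here. Levels are in TPM, which divides reads by gene length and scales every library to the same total, so levels can be compared between genes. TPM was multiplied by a gene's total exonic length in kb and divided by each library's TPM of 1 read per kb. This gave whole reads for 92.2 to 92.6% of nonzero values below 5000 reads, within 0.02 reads. Recovered reads summed over the table came to 3148785 to 4852001 in the Fgf18 f/f livers and 1574331 to 2094293 in the Fgf18ΔHSC livers. Those genes held 7.14 to 7.93% of all TPM in the former and 3.89 to 3.99% in the latter. Library depth relative to the deepest library was 0.571 to 1.0. In bulk liver, fewer cells of a type and less RNA per cell cannot be told apart.

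*Usp2* was lower in every Fgf18ΔHSC liver. Its level was 5.02, 4.96 and 4.99 TPM in Fgf18 f/f livers 1, 2 and 3, resting on 648, 532 and 433 reads. It was 0.891, 0.516 and 0.703 TPM in Fgf18ΔHSC livers 1, 2 and 3, resting on 89, 38 and 67 reads. The Fgf18 f/f livers were close together, the Fgf18ΔHSC livers spread more widely, with liver 2 lowest, and the groups did not overlap. The mean fell from 4.99 ± 0.0339 to 0.703 ± 0.187 TPM (SD, n = 3 each), which is 7.1-fold lower, or 14.1% of the Fgf18 f/f mean. On log2(TPM + 0.1) the difference was -2.69 (SE 0.20, limma adjusted p = 2.26e-05). A gene was called at a limma adjusted p under 0.05 over the table together with an absolute log2 fold change above 1, and *Usp2* passed as lower, as did 30% of the listed genes. An exact two-sided permutation test of the livers gave p = 0.1, the smallest that 3 against 3 allows. Pooled reads, corrected for depth, were 6.92 times as frequent in Fgf18 f/f livers, with a 95% interval of 5.96 to 8.07 that covers counting error only.

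Among the 3201 genes, *Usp2* ranked 695 by its mean TPM in Fgf18 f/f livers and 1707 in Fgf18ΔHSC livers. Of the 1118 genes that were lower in Fgf18ΔHSC livers, 96.4% fell less than *Usp2* on the log2 scale. The drop kept its direction and its call under all 16 alternative settings, with log2 differences of -3.50 to -1.82 and limma adjusted p of 9.2e-07 to 0.000244. The value of -3.50 came with livers rescaled by their median ratio, which in a table of mostly higher genes moved the median log2 difference by -0.74, so that a lower gene staying lower and called there is no check. The settings of no fold limit and unadjusted p are no check either, since they reuse the same fit and only loosen the call. The gene shares 200 exonic bases with 2 genes on the opposite strand, neither with a value here, and the reads cannot be divided among its transcripts.

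**Figure D1:**
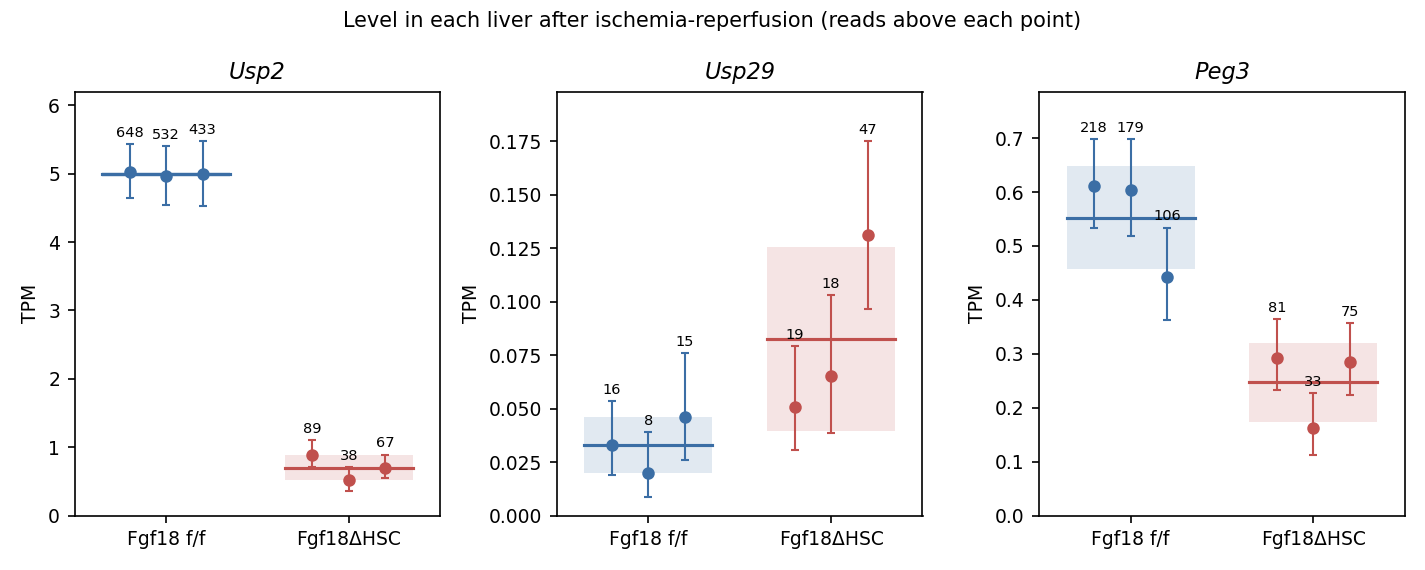
Level in TPM of Usp2, Usp29 and Peg3 in each liver, with Fgf18 f/f and Fgf18ΔHSC livers side by side. Points are livers with 95% exact Poisson intervals for counting error, numbers are reads, lines are group means and bands are SD. Usp2 sits at 4.96 to 5.02 TPM in Fgf18 f/f livers and at 0.516 to 0.891 TPM in Fgf18ΔHSC livers, while Usp29 stays at or below 0.131 TPM in all.

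*Usp29* was low in all livers and its difference did not pass the test. Its level was 0.0331, 0.0199 and 0.0461 TPM in Fgf18 f/f livers 1, 2 and 3, which is 16, 8 and 15 reads over 18078 exonic bases. It was 0.0507, 0.0652 and 0.131 TPM in Fgf18ΔHSC livers 1, 2 and 3, which is 19, 18 and 47 reads. The groups did not overlap, which held for 96.3% of the listed genes, but Fgf18 f/f liver 3 and Fgf18ΔHSC liver 1 were close, with counting intervals of 0.0258 to 0.076 and 0.0305 to 0.0791 TPM. Fgf18ΔHSC liver 3 was the highest of the 6 livers. The means were 0.033 ± 0.0131 and 0.0824 ± 0.043 TPM (SD, n = 3 each), a ratio of 2.5, and without Fgf18ΔHSC liver 3 the second mean was 0.0579 TPM and the ratio 1.76.

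On log2(TPM + 0.1), a scale that compresses differences this close to 0, *Usp29* differed by 0.44 (SE 0.20, limma adjusted p = 0.0633), and by 0.25 without Fgf18ΔHSC liver 3. The exact two-sided permutation p was 0.1. Pooled reads, 39 in Fgf18 f/f and 84 in Fgf18ΔHSC livers, gave a depth-corrected ratio of 2.59 with a 95% counting interval of 1.75 to 3.89, which leaves out the spread between livers. Of 766 listed genes with whole reads and a Fgf18 f/f mean under 0.1 TPM, 761 were higher in Fgf18ΔHSC livers, a direction that the selection of the table nearly fixes for genes this low, *Usp29* included. With limma-voom on the recovered reads the log2 difference was 1.28 (SE 0.45, adjusted p = 0.0176) and passed, as did nearly every gene there. That setting called 2854 of the 2945 genes it fitted. Over all alternatives the adjusted p of *Usp29* ran from 0.0176 to 0.489.

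The *Usp29* locus also limits its value. The gene spans 236642 bp and overlaps 10 others, of which *Zim3*, on the opposite strand, shares 2582 exonic bases with it and a small RNA gene shares 94. The libraries were stranded and aligned as such, but the strand setting used for counting is not given in the sources used here, so reads on those bases cannot be assigned. The 1 overlapping gene with values, *Gm44584*, a gene model that shares no exonic base with *Usp29*, had 0 reads in each Fgf18 f/f liver and 4, 4 and 8 reads in Fgf18ΔHSC livers 1, 2 and 3. Its log2 difference of 0.98 (SE 0.17, limma adjusted p = 0.001) was inside the fold limit, so *Gm44584* was not called.

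*Peg3*, the head-to-head neighbour of *Usp29*, lay on the other side. Its level was 0.611, 0.603 and 0.442 TPM in Fgf18 f/f livers 1, 2 and 3 and 0.293, 0.162 and 0.284 TPM in Fgf18ΔHSC livers 1, 2 and 3, with no overlap. The mean was 2.24-fold lower, 0.552 ± 0.0956 against 0.247 ± 0.0733 TPM (SD, n = 3 each). The log2 difference of -0.92 (SE 0.24, limma adjusted p = 0.00674) was inside the fold limit, so *Peg3* was not called. It was called in 7 of 15 alternatives, over which its log2 difference ran from -1.61 to -0.32. The call with no fold limit follows from that adjusted p and is no check. *Peg3* was called at -1.05 without Fgf18 f/f liver 3, at -1.03 without Fgf18ΔHSC liver 1 and at -1.01 without Fgf18ΔHSC liver 3. The ratio of *Usp29* to *Peg3* within a liver does not depend on how libraries are scaled. It was 0.0541, 0.0329 and 0.104 in Fgf18 f/f livers 1, 2 and 3 and 0.173, 0.402 and 0.462 in Fgf18ΔHSC livers 1, 2 and 3. The groups did not overlap, and the exact permutation p was 0.1, the smallest that 3 against 3 allows. Both genes were selected for a difference and moved in opposite directions, so separation of the ratio is no independent evidence. *Peg3* remained the more abundant in every liver. Of 6 annotated genes of the *Peg3* imprinted domain on the list used here, *Peg3* and *Usp29* were the 2 with values.

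In all, 5 of 94 annotated deubiquitinases on the list had values, and the other 89 were not analysed here. Of the 5, 3 were called, against 71.7% of all listed genes called in either direction, and *Usp2* was the only USP among them. *Tnfaip3* encodes A20, the ubiquitin-editing enzyme that restrains NF-κB signalling. Its level was 67.7, 72.0 and 61.7 TPM in Fgf18 f/f livers 1, 2 and 3 and 7.17, 4.75 and 8.74 TPM in Fgf18ΔHSC livers 1, 2 and 3. It fell 9.74-fold, a log2 difference of -3.31 (SE 0.21, limma adjusted p = 1.61e-05). *Josd2*, a deubiquitinase of the Josephin family, rose from 4.58 ± 0.114 to 10.5 ± 1.04 TPM (SD, n = 3 each), by 1.18 on the log2 scale (SE 0.12, limma adjusted p = 8.3e-05), and with livers rescaled by their median ratio the difference was 0.31 and not called. *Mindy4*, of the MINDY family, was at 0.433 ± 0.118 and 0.211 ± 0.101 TPM (SD, n = 3 each), a log2 difference of -0.81 (SE 0.30, limma adjusted p = 0.0275) that did not reach the fold limit. Without Fgf18ΔHSC liver 1 it was -1.04 and *Mindy4* was called. *Mindy4* was also called after rescaling, at -1.45, and with limma-voom on recovered reads, at -1.02. Rescaling called 1112 of the 3201 genes lower, and limma-voom called 2854 of the 2945 genes fitted. The median log2 difference of the 5 was -0.81, against 0.88 over all listed genes.

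In Fgf18 f/f livers the order of levels was *Tnfaip3*, *Usp2*, *Josd2*, *Mindy4* and *Usp29*, and the ranges of neighbours in that order did not overlap. *Usp2* and *Josd2* were close there, with *Usp2* at 1.11, 1.11 and 1.06 times *Josd2* in livers 1, 2 and 3. In Fgf18ΔHSC livers *Josd2* came first, then *Tnfaip3*, *Usp2*, *Mindy4* and *Usp29*, and the ranges of the last pair overlapped. There *Usp2* was 0.0759, 0.0526 and 0.0697 times *Josd2*. The ratio of *Usp2* to *Tnfaip3* was 0.0688 to 0.0809 in Fgf18 f/f and 0.0804 to 0.124 in Fgf18ΔHSC livers, which overlap (exact permutation p = 0.2). Of 48 genes for ubiquitin and the E1 and E2 enzymes that load it, only *Ube2t*, an E2 enzyme of DNA crosslink repair, had values, at 0.0544 ± 0.0152 and 0.165 ± 0.106 TPM (SD, n = 3 each), and it was not called, although without Fgf18ΔHSC liver 1 its log2 difference was 1.02 and was called.

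**Figure D2:**
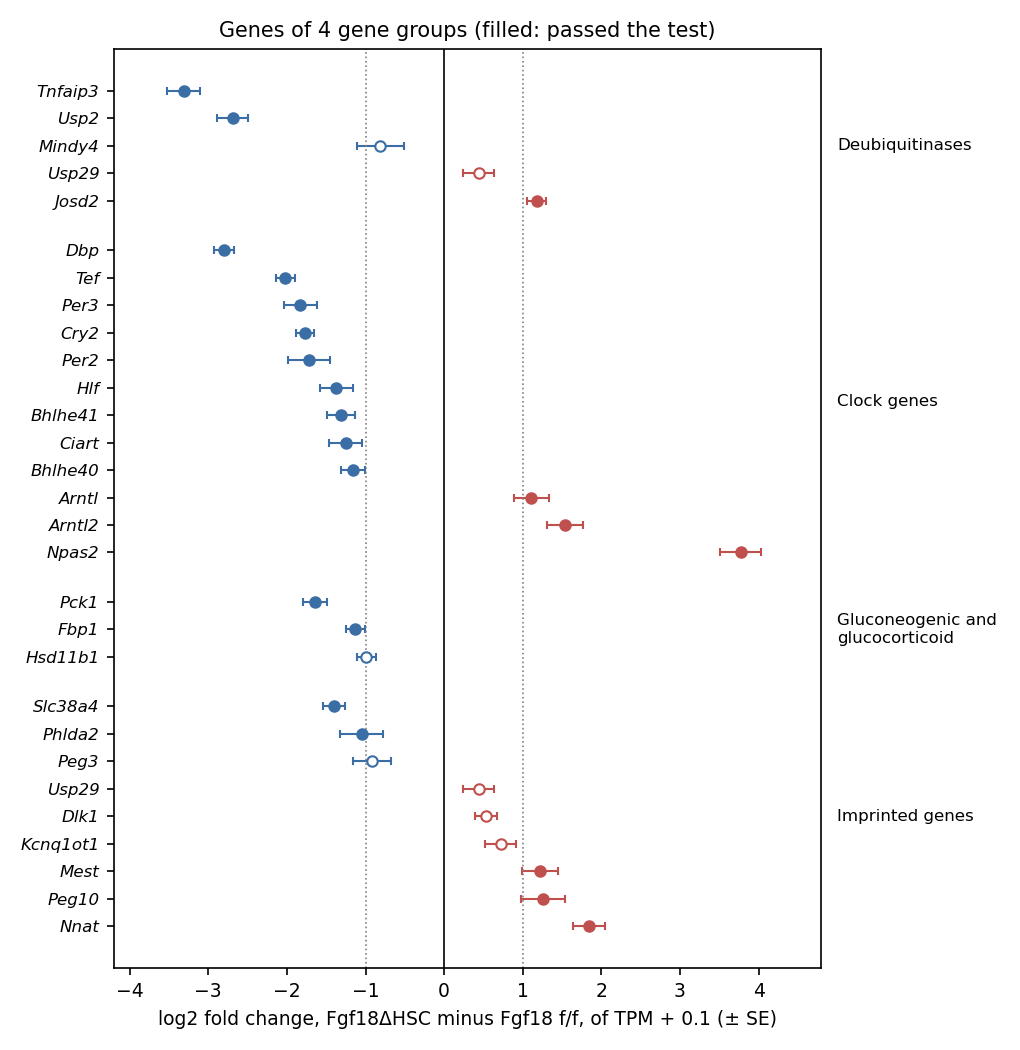
Log2 difference, Fgf18ΔHSC minus Fgf18 f/f on log2(TPM + 0.1), with its SE, for deubiquitinases, 12 clock genes, glucocorticoid and fasting genes and imprinted genes. Filled points passed the test. Usp2 at -2.69 lies beside Dbp at -2.80, and Npas2 at 3.77 is the highest.

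Because *Usp2* is an output of the circadian clock, the clock genes were read beside it. Of 21 on the list, 13 had values and all 13 were called, 10 as lower and 3 as higher, with a median log2 difference of -1.37. Over the whole table, which was selected for differences, 71.7% of genes were called, 30% as lower and 41.6% as higher, with a median of 0.88. All 9 listed genes of the negative limb and of the PAR bZIP output factors were lower, with a median of -1.72. *Dbp*, a PAR bZIP activator that is itself a clock output, was at 13.1, 13.1 and 12.4 TPM in Fgf18 f/f livers 1, 2 and 3 and at 1.63, 1.97 and 1.69 TPM in Fgf18ΔHSC livers 1, 2 and 3. It fell 7.31-fold (log2 difference -2.80, SE 0.13, limma adjusted p = 7.49e-06). *Tef*, of the same family, fell from 8.64 ± 0.177 to 2.06 ± 0.152 TPM and *Per3*, a period gene, from 1.38 ± 0.3 to 0.311 ± 0.0229 TPM (SD, n = 3 each). *Per1* and *Cry1*, whose proteins USP2 acts on, were not analysed here.

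Of the positive limb, 3 genes were called higher. *Npas2*, a partner of BMAL1, was at 0.078, 0.0375 and 0.0695 TPM in Fgf18 f/f livers 1, 2 and 3, on 4 to 10 reads, and at 2.75, 1.53 and 2.15 TPM in Fgf18ΔHSC livers 1, 2 and 3. Its log2 difference was 3.77 (SE 0.26, limma adjusted p = 1.83e-05). *Arntl2*, a paralogue of *Arntl*, rose from 0.103 ± 0.00443 to 0.501 ± 0.133 TPM (SD, n = 3 each). *Arntl*, which encodes BMAL1, was the 1 gene with values among 16 whose proteins USP2 is reported to deubiquitinate. It was at 1.09, 0.811 and 0.982 TPM in Fgf18 f/f livers 1, 2 and 3 and at 2.85, 1.74 and 2.07 TPM in Fgf18ΔHSC livers 1, 2 and 3, and it rose by 1.11 on the log2 scale (SE 0.22, limma adjusted p = 0.0017). After rescaling, which left 331 of the 3201 genes called higher, *Npas2* alone of the 3 higher genes was still called. *Arntl* stood at 0.29 there, and without Fgf18ΔHSC liver 1 *Arntl* stood at 0.92 and was not called.

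Ratios within a liver set *Usp2* against these genes without any scaling. *Usp2* over *Dbp* was 0.384, 0.378 and 0.403 in Fgf18 f/f livers 1, 2 and 3 and 0.547, 0.262 and 0.416 in Fgf18ΔHSC livers 1, 2 and 3. The ranges overlap, the log2 difference of the ratio was 0.01 and the exact permutation p was 1, so no difference between the falls of the pair was detected, at a spread of 0.143 (SD) between Fgf18ΔHSC livers. *Usp2* over *Tef* was 0.564 to 0.591 in Fgf18 f/f and 0.231 to 0.453 in Fgf18ΔHSC livers, without overlap (log2 difference -0.79, exact permutation p = 0.1). *Usp2* over *Per3* was 2.89 to 4.22 and 1.8 to 2.69, also without overlap (log2 difference -0.73, exact permutation p = 0.1). The hour at which each liver was collected is not given in the sources used here, and its part in the values of *Usp2* and the clock genes was not tested.

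**Figure D3:**
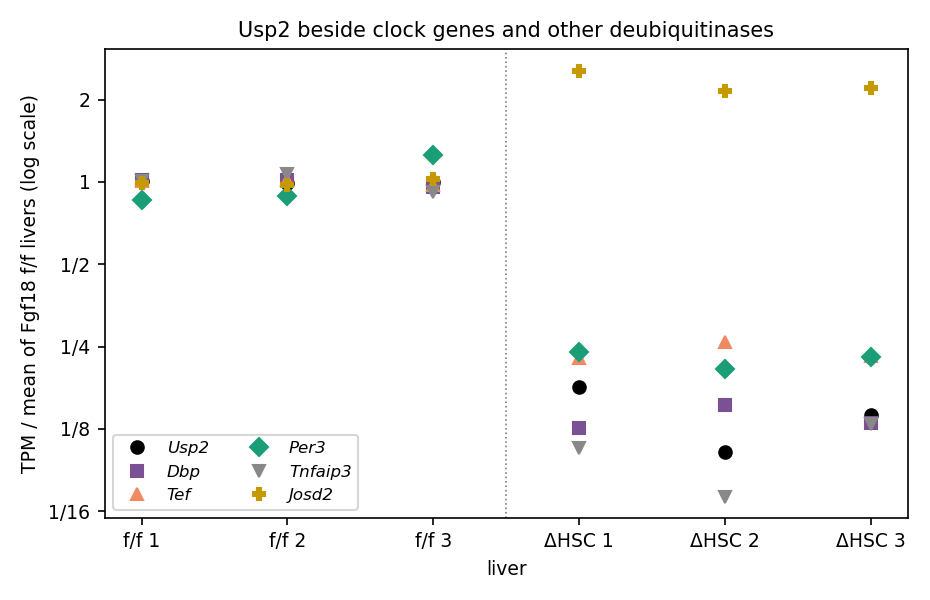
Level of Usp2, Dbp, Tef, Per3, Tnfaip3 and Josd2 in each liver relative to the Fgf18 f/f mean of the gene, on a log axis. Usp2 and Dbp drop to 14.1% and 13.7% of that mean, Tef and Per3 to 23.9% and 22.5%, Tnfaip3 to 10.3%, and Josd2 rises to 230% of it.

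By a rule that compares centred log2 profiles over the 6 livers, the 4 protein-coding genes nearest to *Usp2* among 1127 candidates were *Ccl4*, *Akr1c19*, *Hamp2* and *Nrep*, at Euclidean distances of 0.31, 0.34, 0.41 and 0.41. *Ccl4*, a chemokine, went from 18.0 ± 0.623 to 2.86 ± 0.759 TPM and *Hamp2*, a hepcidin gene, from 38.9 ± 3.67 to 5.43 ± 0.467 TPM (SD, n = 3 each). *Dbp* ranked 22 at a distance of 0.69, *Tnfaip3* ranked 39 at 0.89 and *Tef* ranked 59 at 1.03. Likeness here is a description of levels that mostly follow the same split of livers. *Usp29* was too low for the measure.

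Hepatic *Usp2* is tied to glucocorticoid and fasting responses, and 3 of 17 genes on that list had values, all lower in Fgf18ΔHSC livers, as were 1118 of the 3201 listed genes. Of the 3, 2 were called lower, against 30% of all listed genes. *Pck1*, the gluconeogenic enzyme PEPCK, fell from 393 ± 56.7 to 126 ± 18.2 TPM (SD, n = 3 each), a log2 difference of -1.64 (SE 0.15, limma adjusted p = 5.59e-05). *Fbp1*, a later gluconeogenic enzyme, fell from 531 ± 12.8 to 243 ± 30.1 TPM (SD, n = 3 each), a log2 difference of -1.13 (SE 0.12, limma adjusted p = 9.17e-05). *Hsd11b1*, which regenerates active glucocorticoid and is reported to act downstream of USP2, was at 139 ± 1.9 and 70.3 ± 9.61 TPM (SD, n = 3 each), a log2 difference of -0.99 (SE 0.12, limma adjusted p = 0.000192) that missed the fold limit and was called at -1.05 without Fgf18ΔHSC liver 1 or 2.

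Markers of cell types that had values differed between the groups, which selection for the table required of them. Nothing follows for the markers without values. The 1 hepatocyte marker with values of 7, *Cyp2e1*, was at 1660 to 1960 TPM in Fgf18 f/f and 461 to 686 TPM in Fgf18ΔHSC livers. Markers of HSCs, 7 of 8 with values and 5 called higher against 41.6% of all listed genes, summed to 5.8 to 7.27 TPM and 16.6 to 21.8 TPM. Without Fgf18ΔHSC liver 1, *Des* and *Ngfr* fell inside the fold limit and were not called, which leaves 3, and *Des* was also not called without Fgf18ΔHSC liver 2 or without Fgf18 f/f liver 2 or 3. With livers rescaled by their median ratio, 2 HSC markers were called, *Pdgfrb* at 1.11 and *Hand2* at 1.13. There 331 of the 3201 listed genes were called higher. With limma-voom on recovered reads, all 7 were called higher, as were 1890 of the 2945 genes fitted. Sums were 11.9 to 14.4 and 26.5 to 38.8 TPM for sinusoidal endothelial markers, of which 3 of 7 had values. They were 4.19 to 5.45 and 14.0 to 19.5 TPM for Kupffer cell and macrophage markers, 2 of 7 with values. They were 28.0 to 30.5 and 50.1 to 76.6 TPM for cholangiocyte markers, 4 of 5 with values. Of the 4, *Spp1* (log2 difference 1.98), *Epcam* (1.29) and *Krt7* (0.82, not called) were higher and *Sox9* (-1.04) was lower. *Sox9* was called, but not without Fgf18ΔHSC liver 2 (-0.84) or without Fgf18 f/f liver 1 (-0.91) or 2 (-0.99). *Krt7* was called without Fgf18ΔHSC liver 2, at 1.18. Most of the sum came from *Spp1* and *Sox9*, and without *Spp1*, an alternative chosen after seeing the data, it was 11.9 to 18.2 TPM in Fgf18 f/f and 6.73 to 11.6 TPM in Fgf18ΔHSC livers. Sums were 5.32 to 5.51 and 11.5 to 29.3 TPM for neutrophil markers, 2 of 6 with values. With rescaling and its downward shift, every marker kept its direction, but calls were lost. Calls were lost over the whole table too, with 331 genes called higher after rescaling, against 1333 before. Of sinusoidal endothelial markers 0 were called there, against 3 before, and of Kupffer cell and macrophage markers 0, against 1. Of neutrophil markers 1 was called, against 2 before, and of cholangiocyte markers 1 was called higher, against 2. The median log2 difference of HSC markers was 0.50 after rescaling and 1.20 before. No listed marker was at 0 in any liver, and the part of these shifts in the values of *Usp2*, *Usp29* and *Peg3* was not tested.

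**Figure D4:**
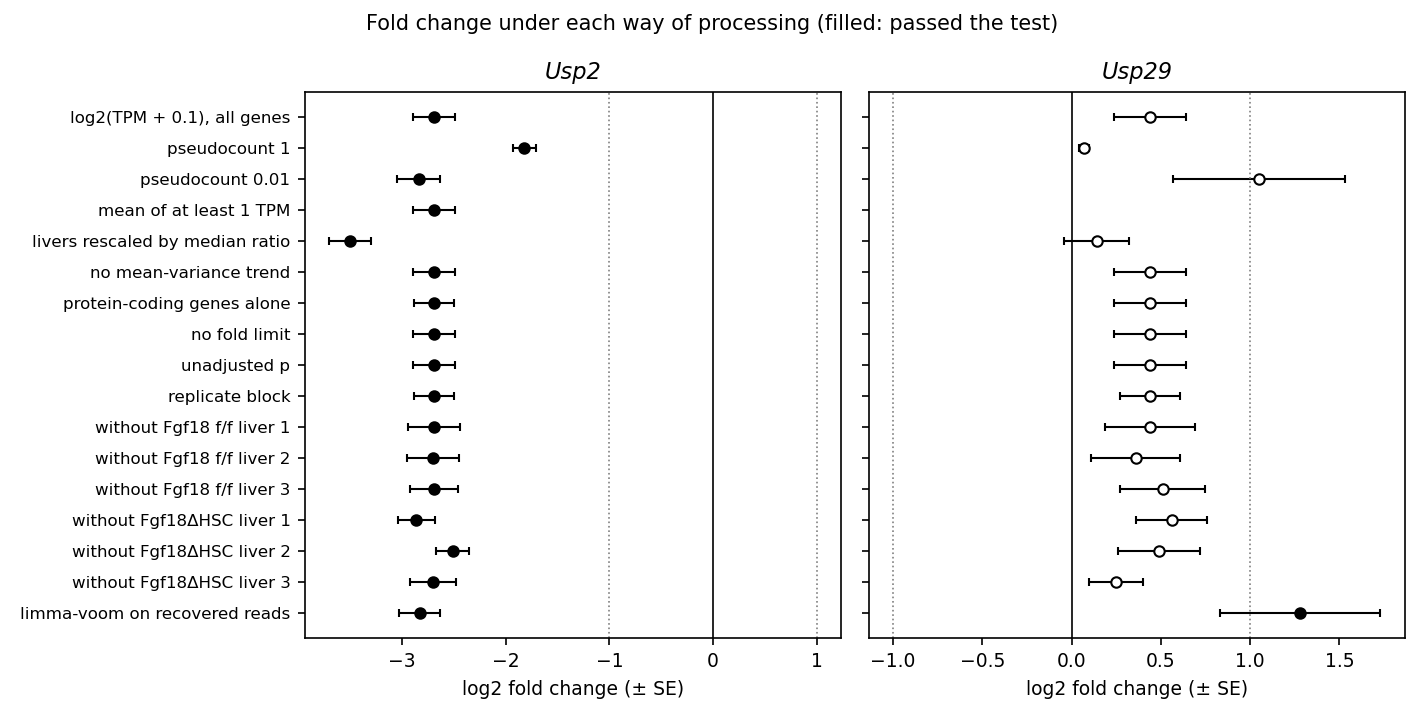
Log2 difference of Usp2 and of Usp29 with its SE under each setting of the fit. Usp2 lies between -3.50 and -1.82 throughout, and Usp29 between 0.07 and 1.28, the highest being limma-voom on recovered reads.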

How the data were processed

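RNA-seq was carried out on bulk liver of 3 Fgf18 f/f and 3 Fgf18ΔHSC mice. The authors prepared stranded mRNA libraries and aligned reads to GRCm38 (mm10). The submitters' processing notes name cutadapt 2.5, HISAT2 2.1.0 and featureCounts 1.6.3. The authors deposited a table of selected genes whose values were taken as TPM, since the header names no unit and the values gave whole reads over GENCODE M21 exon lengths. Of 3201 genes, 3196 matched and 2945 were taken as whole in all 6 livers. The margin for these was 0.02 reads at low counts and widened with the reads, so that above 5000 reads any value passed. The deposited fold changes, p-values, adjusted p-values and direction marks come from the authors' own comparison and were used only to test how the table was selected.

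Groups were compared with limma 3.58.1 in R 4.3.3 on log2(TPM + 0.1), with a mean-variance trend, no block, no filter on low values and Benjamini-Hochberg adjustment over the 3201 genes. Genes were called where the adjusted p was under 0.05 and the log2 fold change beyond 1 in either direction. The fit was tested on simulated data, and the outcome is not reported here. Single values were compared by exact two-sided permutation tests in Python 3.11.15, and counting intervals were exact Poisson or, for ratios, exact binomial. Intervals cover counting error only, and p-values measure the spread between these livers.

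Both genes and all lists were chosen with earlier results of these data known. Named genes were both members, all listed deubiquitinases and *Peg3* domain genes, the 3 largest changes in each clock limb, all listed USP2 substrates and glucocorticoid genes, up to 4 of each other list, and the 5 profiles nearest to *Usp2* with a mean of at least 1 TPM. Of these, 2 genes are not reported here. The alternatives were pseudocounts of 1 and 0.01, a mean of at least 1 TPM, median-ratio rescaling, no trend, protein-coding genes alone, no fold limit, unadjusted p, a replicate block, each liver left out, and limma-voom on recovered reads.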

Additional observations from a re-analysis of the deposited data

How the results depend on the processing

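The log2 difference of *Usp2* kept its direction and call in all 16 alternatives, and ran from -2.86 to -2.51 when each liver was left out in turn. Among the alternatives, no fold limit and unadjusted p reuse the same fit, so they could not change a direction or remove a call. *Usp29* kept its direction in all 15 of its alternatives and ran from 0.25 to 0.56 with a liver left out. It passed only with limma-voom on recovered reads, at 1.28 (adjusted p = 0.0176), and the alternative of a mean of at least 1 TPM gave no value for it or for *Peg3*. The table-wide count was 2294 genes, 1333 higher and 961 lower. It was 832 (266 higher, 566 lower) with a pseudocount of 1, 1309 (522 higher, 787 lower) with a mean of at least 1 TPM, 1443 (331 higher, 1112 lower) with livers rescaled, which shifted the median log2 difference by -0.74, and 2120 to 2330 with a liver left out. With limma-voom the table-wide count was 2854 (1890 higher, 964 lower) of the 2945 genes fitted. It was 3043 (1995 higher, 1048 lower) with a pseudocount of 0.01 and 3113 (2005 higher, 1108 lower) with no fold limit. Deubiquitinases called numbered 5 with limma-voom, which called nearly all genes, and 3 to 4 with a liver left out. Clock genes called numbered 9 with a pseudocount of 1 and 12 to 13 with a liver left out. Genes called in the *Peg3* domain, 0 at first, numbered 1 with a pseudocount of 0.01, 1 after rescaling, 1 with no fold limit, 2 with limma-voom and 0 to 1 with a liver left out. The mean of the cholangiocyte marker sum, 34 TPM higher in Fgf18ΔHSC livers, differed by -5.72 TPM without *Spp1*, an alternative chosen after seeing the data, in which *Sox9* was lower and *Epcam* and *Krt7* were higher. The causes were not tested. Replicate numbers occur in both groups, but same-numbered livers deviated from their group means with correlations of only 0.06, 0.01 and 0.03, so the numbers were not taken as pairs. With the replicate number as a block, *Usp2* stood at -2.69 (limma adjusted p = 0.000221) and *Usp29* at 0.44 (limma adjusted p = 0.0477, inside the fold limit), and neither call changed. Depth limits *Usp29*, which rests on 8 to 47 reads in a liver, each worth 0.00207 to 0.00362 TPM.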

Other observations

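Imprinted genes outside the *Peg3* domain were read beside *Usp29*. Of 41 annotated genes on that list, 7 had values and 5 were called, a share close to the 71.7% called over all listed genes, with a median log2 difference of 0.72 against 0.88 over all listed genes. *Nnat*, a paternally expressed proteolipid gene, rose from 0.83 ± 0.211 to 3.19 ± 0.326 TPM (SD, n = 3 each), and *Peg10* and *Mest*, both paternally expressed, rose by 1.26 and 1.22 on the log2 scale. *Slc38a4*, an amino acid transporter abundant in liver, fell from 256 ± 14.6 to 97.8 ± 16.6 TPM (SD, n = 3 each). *Phlda2*, a maternally expressed growth regulator, fell by 1.05 on the log2 scale and was not called without Fgf18 f/f liver 2, at -0.78, or without Fgf18ΔHSC liver 3, at -0.94. After rescaling, which left 331 of the 3201 listed genes called higher, *Nnat* at 1.02 was the 1 higher gene still called. *Peg10* and *Mest* stood at 0.56 and 0.43 there. *Dlk1* and *Kcnq1ot1* were not called. With limma-voom on recovered reads *Dlk1* was called at 2.78 (SE 0.68, adjusted p = 0.00277), against 0.53 on log2(TPM + 0.1). It rests on 0 or 1 read in each Fgf18 f/f liver.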
